A study of Ranunculus trichophyllus with 6 samples.

Results

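The homologs described here are those whose Arabidopsis counterpart is annotated to response to cold in *Ranunculus trichophyllus*, an aquatic buttercup that can also live on land. A homolog was taken when its Arabidopsis match carried the Gene Ontology (GO) term response to cold with any evidence other than "no data", and none of 7 further terms (response to water deprivation, response to osmotic stress, response to abscisic acid, abscisic acid signalling, chloroplast stroma, chloroplast thylakoid membrane, response to wounding). The rule kept 58 of the 158 homologs under response to cold and of the 8613 homologs in the annotation, with 126 assembled transcripts among 17559 that have an Arabidopsis match. The choice rests on annotation and not on any measured value. No cold was given to the plants of these libraries, and both conditions were kept at 22 °C with 16 h of light and 8 h of dark. The values are thus levels of these homologs at 1 temperature. In a separate experiment of the paper, seedlings kept in the cold made leaves that resembled aquatic ones, and no library here comes from them.

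The study set aquatic plants, soaked as seedlings after 1 week, against terrestrial plants, and its question was how leaf form follows the environment. Each condition had 3 RNA-seq libraries from seedlings freed of cotyledon and hypocotyl. Library 1 of each condition was labelled as leaf at 14 days, and libraries 2 and 3 as leaf with shoot apical meristem at 11 days. Age, the time under water that goes with it, and the presence of the apex therefore cannot be told apart. The paper gives a single harvest time after transfer for its RNA-seq plants, which differs from these labels. The labels name neither separate cultures nor pools, and p-values therefore measure only the spread between these libraries.

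Plants that acclimate to cold do so largely through the CBF regulon. In Arabidopsis the bHLH factor ICE1 and the calmodulin-binding CAMTA factors act on the CBF genes, and CBF proteins in turn activate COR (cold-regulated) genes, many of which encode protectants of membranes and proteins. Around this core, cold also touches the circadian clock, the vernalization complexes that silence FLC, membrane lipids, the cell wall, the ribosome and protein folding. For description each homolog was placed in a role, a grouping made here and not taken from GO terms. Evidence of the annotation was a change of expression in cold for 39 of the 58, a mutant phenotype for 14, and computed analysis alone for 6.

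Besides cold, 35 of the 58 (60.3%) were annotated to the nucleus, against 35.0% of all homologs, and 9 (15.5%) to response to salt stress, against 3.56%. Cuticle development was shared by 8 of the 58, out of 22 homologs with that term in the whole annotation, and response to light stimulus by 8 out of 78. Of the 58, 29 rested on 1 transcript, and the most for a homolog was 11. Identity of the best protein match had a median of 66.5% and lay between 26% and 97%, so a name below stands for the nearest Arabidopsis gene and not for a proven ortholog. The best match had 26% identity for BAG6, 33% for COR27, 41% for VEL1 and 46% for CAMTA2. Fragments that could belong to several members of a family were divided by estimation, which makes values of close relatives (KCS, tubulin and ribosomal protein homologs) less certain.

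Library totals lay between 25345718 and 33978729 estimated counts, and the share in homologs was 33.4% in aquatic library 1, where 36.2% of the counts fell on 3 transcripts without annotation, against 54.2% to 56.3% in the other libraries. The 58 homologs held 1.30%, 1.41% and 1.36% of the homolog counts in aquatic libraries 1 to 3, against 1.45%, 1.69% and 1.81% in terrestrial libraries. Photosynthesis genes marked all libraries as green tissue, with all 15 matched markers above 0 and a summed level of 95502 to 117273 CPM (counts scaled to library size) in aquatic libraries and 89155 to 165079 CPM in terrestrial libraries. The 15 matched markers of meristem and cell division summed to 50.2 CPM in aquatic library 1 and 60.1 CPM in terrestrial library 1. At 11 days they summed to 483 and 612 CPM in aquatic and 776 and 859 CPM in terrestrial libraries. STM and KNAT1, which define the meristem, were at 0 in both 14-day libraries. CLV1 and CLV2 of the same list were present there, with 11.5 and 11.6 CPM in aquatic library 1 and 21.2 and 8.80 CPM in terrestrial library 1. Of these 15 apex markers none rose and 4 fell in aquatic plants (CLV1, CDKB2;1, AUR1 and CYCD3;1). With the replicate number as a block CLV1 passed by edgeR, while the adjusted p was 0.105 for CDKB2;1, 0.0686 for AUR1 and 0.0755 for CYCD3;1.

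Of the 58 homologs, 52 had enough counts for the test, which was edgeR's quasi-likelihood test with harvest as a term and Benjamini-Hochberg adjustment over all 8154 homologs tested. In aquatic plants 6 of the 52 rose and 8 fell at an adjusted p under 0.05, that is 11.5% and 15.4%, beside 9.60% higher and 6.78% lower among all homologs. Both directions were thus present, and the median log2 fold change of the 52 was -0.11, against -0.02 over all homologs. The homologs that rose were CCR1, ATPMEPCRB, BT3, RCI3, VEL1 and CAMTA2, and those that fell were ICE1, BAG6, CHY1, TUB6, AT3G09200, PFC1, GLB1 and PLDDELTA. All 3 aquatic libraries stood above all 3 terrestrial libraries in 6 of the 52 and below them in 8, against 13.7% and 11.8% of all homologs.

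These calls depended on the libraries. Without aquatic library 1 the counts were 6 higher and 9 lower, where CAMTA2 and PLDDELTA no longer passed and KCS20, KCS3 and RPL23AB did. Without terrestrial library 1 they were 6 and 7, where CAMTA2, PLDDELTA and BAG6 no longer passed and KCS20 and KCS3 did. Leaving out aquatic library 3 left 5 higher and 1 lower (PFC1), and leaving out terrestrial library 3 left 2 higher (RCI3 and BT3) and 0 lower, where edgeR gave 7 higher and 11 lower at an unadjusted p under 0.05. Without aquatic library 2, and likewise without terrestrial library 2, no homolog passed in either direction, while 7 higher and 9 lower, and 7 higher and 8 lower, had an unadjusted p under 0.05. The direction of all 14 was the same in each of these fits. With the replicate number as a block 4 rose and 1 fell (5 of the 14 calls), and DESeq2 on the same model called 8 higher and 11 lower.

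**Figure D1:**
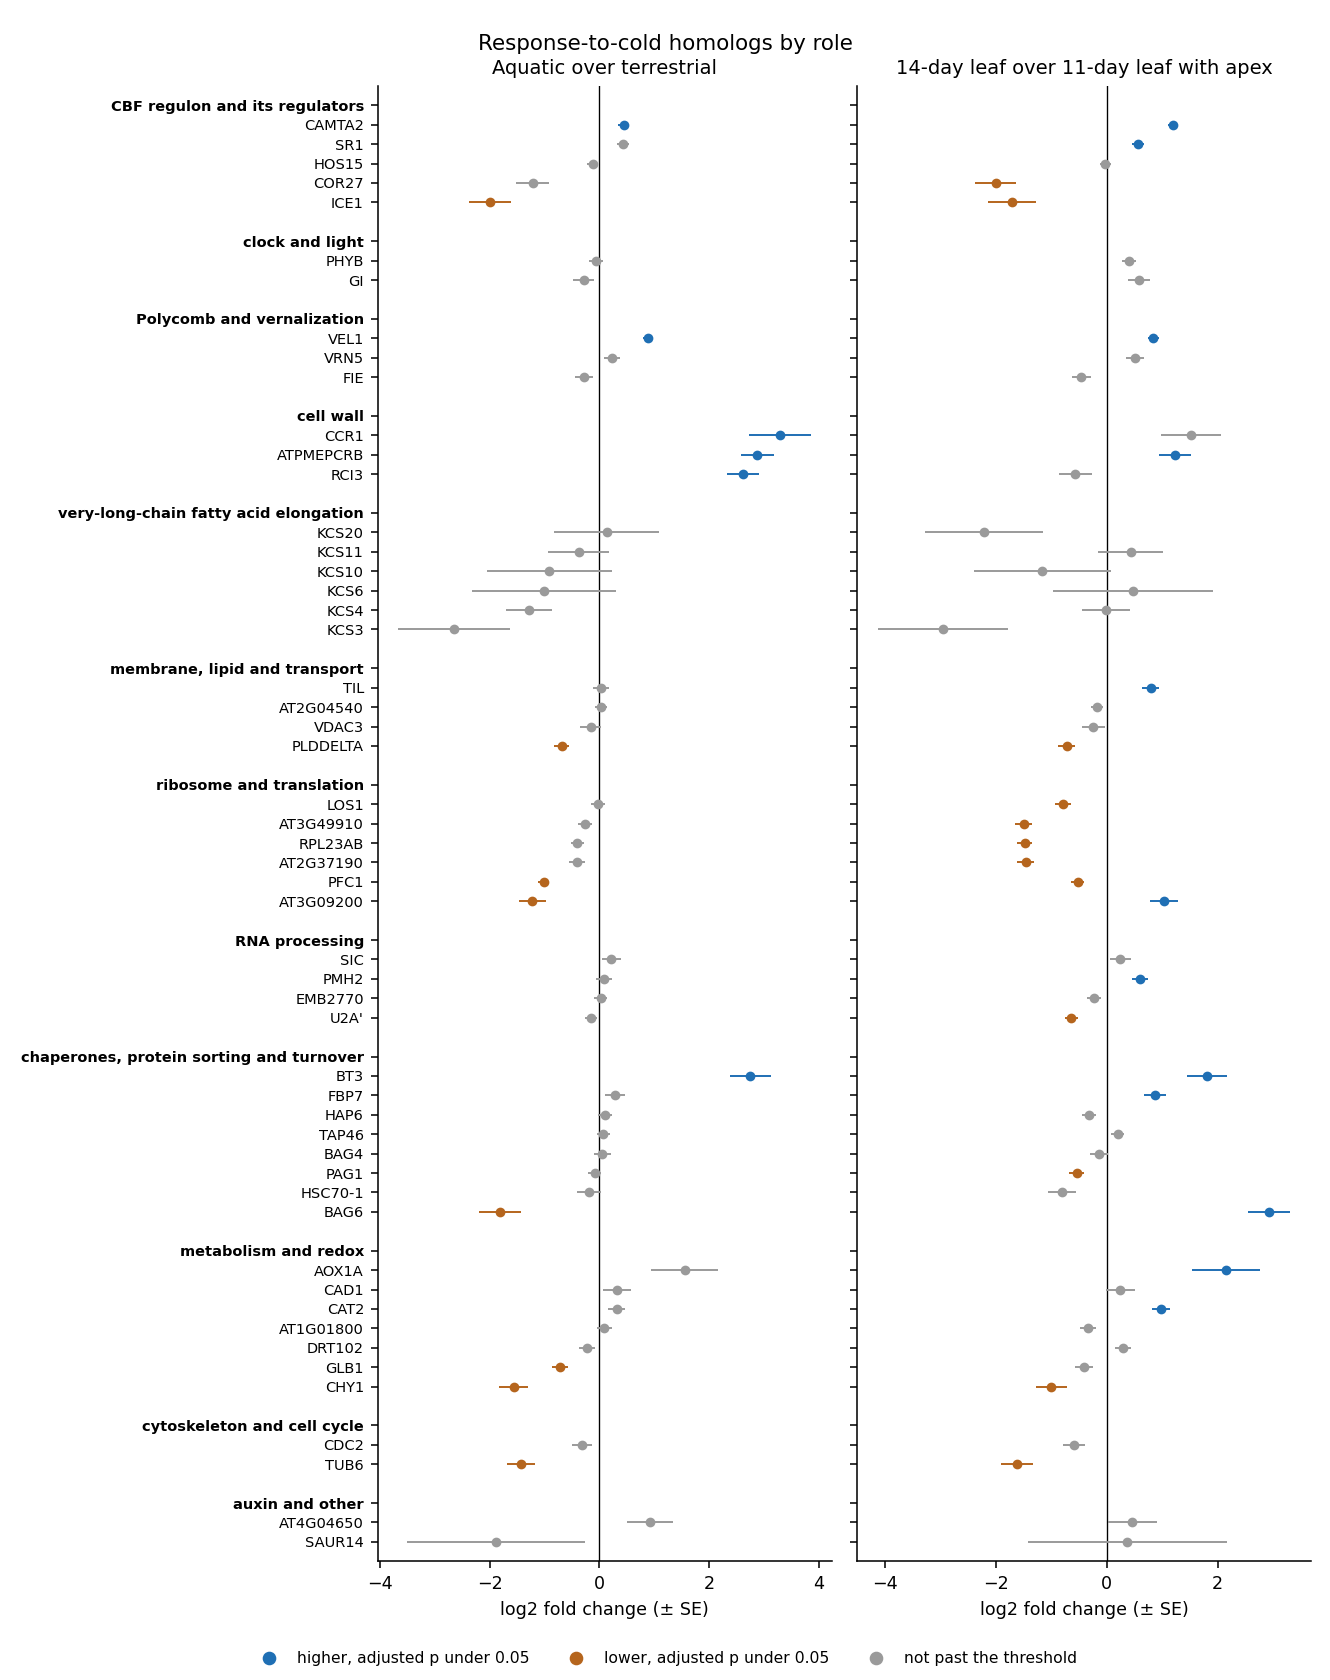
Log2 fold changes with standard errors (x axes) of the 52 tested homologs, grouped by role; left, aquatic over terrestrial; right, 14-day leaf over 11-day leaf with apex; coloured points passed an adjusted p of 0.05. In the left panel all 3 cell wall homologs lie above 2.5, ICE1 lies lowest of those that fell, at -2.0, and SAUR14, KCS6, KCS10 and KCS3 have the widest errors.

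Of the regulators at the head of the cold pathway, ICE1 fell and CAMTA2 rose slightly, while SR1 and HOS15 did not pass. ICE1 had 5.94, 31.2 and 42.6 CPM in aquatic libraries 1 to 3, against 51.9, 96.3 and 114 CPM in terrestrial libraries 1 to 3. Every aquatic library was below every terrestrial library, and the 14-day library was the lowest within each condition. ICE1 fell by 2.0 on the log2 scale (SE 0.38, a 4.0-fold lower level, adjusted p = 0.0311), and the adjusted p was 0.0739 with the replicate block. Within the 11-day libraries alone it fell by 1.5 (adjusted p = 0.0160). ICE1 is also known in Arabidopsis as SCREAM, a factor of the stomatal lineage.

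CAMTA2, a calmodulin-binding transcription activator, had 199.5, 87.0 and 90.1 CPM in aquatic libraries and 150.3, 62.9 and 66.2 CPM in terrestrial libraries. Within each harvest the aquatic libraries were higher, while the groups overlapped across harvests. Its log2 fold change was 0.44 (SE 0.09, adjusted p = 0.0394; 0.0908 with the replicate block and 0.0520 within the 11-day libraries). SR1, the related factor also called CAMTA3, had 242, 165 and 157 CPM in aquatic libraries and 175, 127 and 114 CPM in terrestrial libraries, a log2 fold change of 0.43 (SE 0.11) that did not pass (adjusted p = 0.0513).

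The homologs of CBF2 and COR27 were at very low levels. CBF2 had 3 counts in all aquatic and 8 in all terrestrial libraries and could not be tested. COR27, a cold-regulated gene that also acts on the clock, had 0.180, 0.825 and 0.678 CPM in aquatic libraries and 0.434, 1.91 and 1.61 CPM in terrestrial libraries, where 1 count is worth 0.0616 to 0.0900 CPM. Within each harvest it was lower in aquatic plants, with a log2 fold change of -1.22 (SE 0.30) that missed the threshold (adjusted p = 0.0536). HOS15, a WD40 protein that works with histone deacetylases on COR genes, differed little, with 145, 140.5 and 147 CPM in aquatic and 152, 158 and 161 CPM in terrestrial libraries (log2 fold change -0.12, SE 0.10, adjusted p = 0.395).

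The light and clock homologs GI and PHYB did not pass, with log2 fold changes of -0.29 (SE 0.19) and -0.06 (SE 0.12). Among homologs of the vernalization machinery, VEL1 rose. VEL1 is a PHD-finger protein of the VIN3 family, which works with Polycomb complexes, and it had 166, 88.6 and 89.8 CPM in aquatic libraries, against 85.8, 51.2 and 48.1 CPM in terrestrial libraries. All aquatic libraries were above all terrestrial libraries, and within each harvest the distance was similar. The log2 fold change was 0.88 (SE 0.09, adjusted p = 0.0123; 0.0408 with the replicate block). VRN5, of the same family, had a log2 fold change of 0.23 (SE 0.15, adjusted p = 0.322), and FIE, a core Polycomb subunit, one of -0.28 (SE 0.16, adjusted p = 0.254). RTV1, a relative of VRN1, had a single count in all libraries together.

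All 3 homologs placed in the cell wall role rose, beside 9.60% higher among all homologs, and they hold 3 of the 4 largest increases. The count rests on the grouping, as RCI3, a peroxidase, could also be placed with redox homologs. CCR1 encodes cinnamoyl-CoA reductase, the entry step to lignin monomers, and had 941, 220.0 and 125 CPM in aquatic libraries, against 34.9, 26.6 and 30.3 CPM in terrestrial libraries. The groups were far apart, and the 14-day aquatic library was the highest by a wide margin. Its log2 fold change was 3.29 (SE 0.56, adjusted p = 0.0241), and the adjusted p was 0.0696 with the replicate block. Within the 11-day libraries alone CCR1 rose by 2.60 (adjusted p = 0.0140).

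ATPMEPCRB, a pectin methylesterase that trims the methyl groups of wall pectin, had 123, 82.5 and 81.4 CPM in aquatic libraries, against 29.7, 8.91 and 7.78 CPM in terrestrial libraries. The lowest aquatic library was well above the highest terrestrial one. Different transcripts made up this sum in each harvest. The most abundant had 112, 17.3 and 5.48 CPM in aquatic libraries, and the next had 1.62, 36.5 and 40.7 CPM. The log2 fold change of summed ATPMEPCRB was 2.87 (SE 0.30, a 7.33-fold higher level, adjusted p = 0.0116; 0.0408 with the replicate block). RCI3 (rare cold inducible), a secreted peroxidase, had 152, 161 and 155 CPM in aquatic libraries, against 14.8, 27.9 and 38.6 CPM in terrestrial libraries. Aquatic levels were nearly alike in both harvests, whereas the 14-day terrestrial library was the lowest of its group. RCI3 rose by 2.61 (SE 0.29, adjusted p = 0.0128; 0.0419 with the replicate block), and all 5 of its transcripts with enough counts rose, by 1.68 to 3.03.

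**Figure D2:**
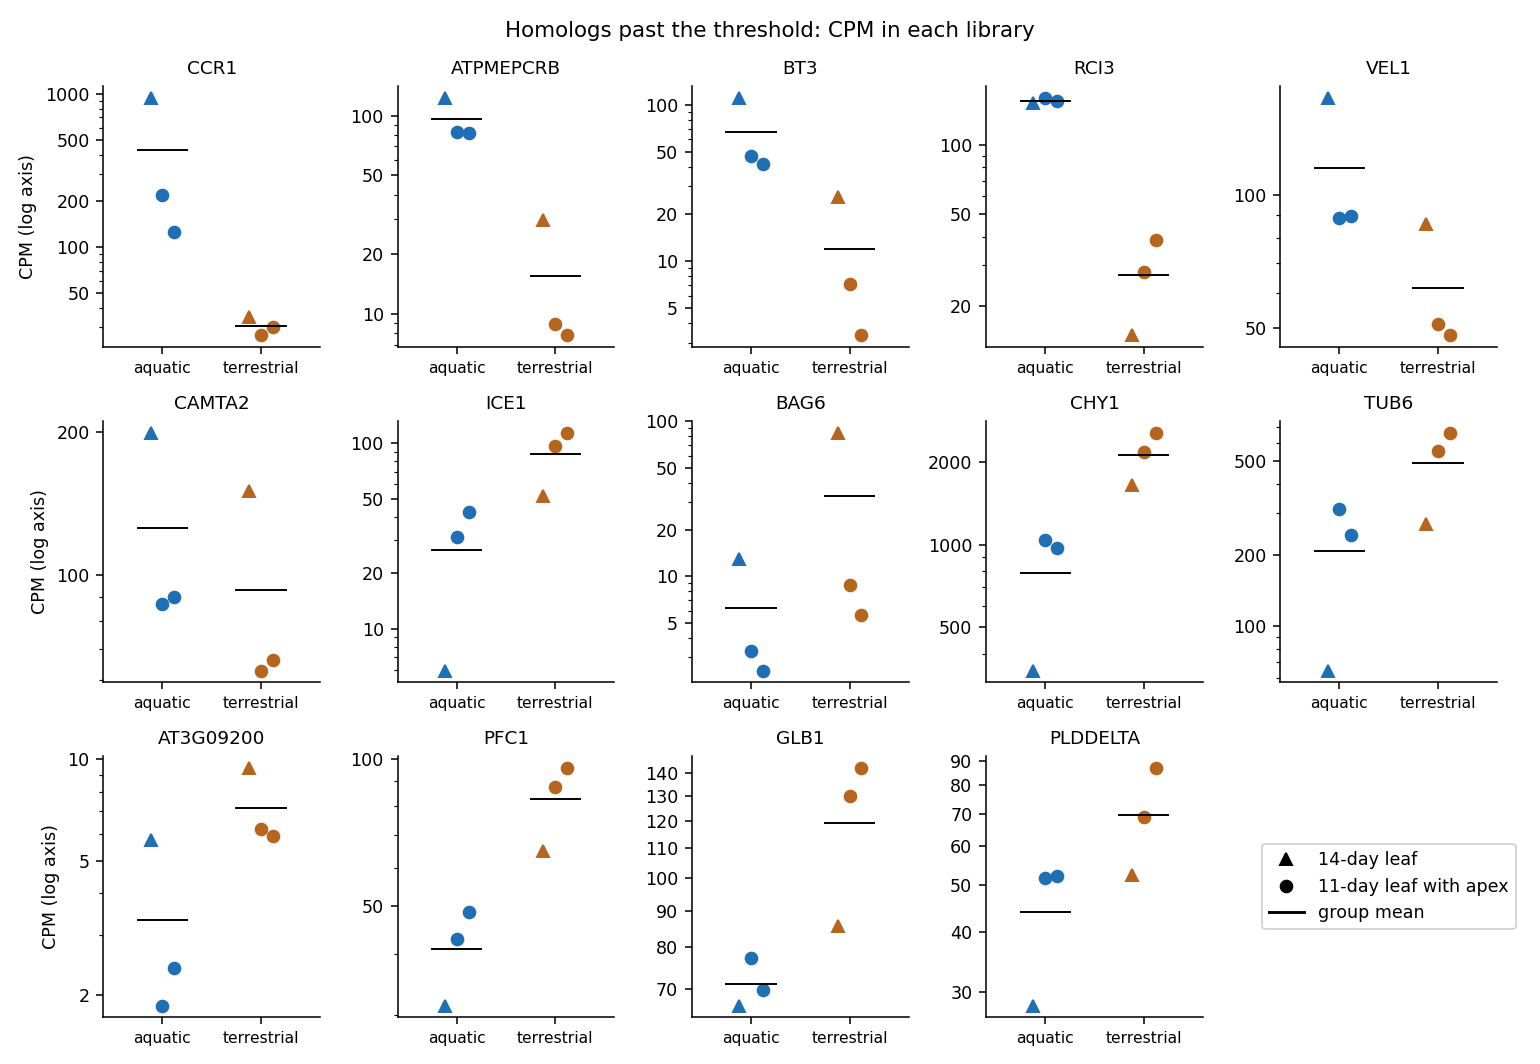
CPM (log axis, 1 panel per homolog) in each library of the 14 homologs past the threshold, aquatic left and terrestrial right; triangles are 14-day leaf, circles 11-day leaf with apex, and bars the group means. The groups do not overlap in 11 of the 14 panels, and CAMTA2, BAG6 and TUB6 overlap across harvests.

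Homologs of protein folding, sorting and turnover were mostly near their terrestrial levels, with 1 of 8 higher and 1 lower. BT3, a BTB and TAZ domain protein that serves as a scaffold of ubiquitin ligases, had 111, 47.2 and 41.9 CPM in aquatic libraries, against 25.5, 7.14 and 3.34 CPM in terrestrial libraries. It was higher in every aquatic library, and in both conditions the 14-day library was the highest. The rise was 2.75 (SE 0.37, adjusted p = 0.0166; 0.0430 with the replicate block). BAG6, a co-chaperone of HSP70, had 13.0, 3.30 and 2.46 CPM in aquatic libraries, against 84.4, 8.84 and 5.66 CPM in terrestrial libraries. It was lower within each harvest, while the groups overlapped. BAG6 fell by 1.82 (SE 0.39, adjusted p = 0.0392; 0.0789 with the replicate block and 0.0534 within the 11-day libraries). HSC70-1, the most abundant homolog of the set with a mean of 796 TPM (a level scaled to transcript length as well), had 2098, 3185 and 2477 CPM in aquatic and 1668, 3756 and 3969.8 CPM in terrestrial libraries. The groups overlapped, and its log2 fold change of -0.19 (SE 0.23) did not pass (adjusted p = 0.573).

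Metabolic homologs gave 2 that fell of 7 tested. CHY1, a peroxisomal hydrolase of valine breakdown, had 348, 1042 and 973 CPM in aquatic libraries, against 1647, 2181 and 2559 CPM in terrestrial libraries. All aquatic libraries were below all terrestrial libraries, with the 14-day library lowest in each condition. It fell by 1.57 (SE 0.26, adjusted p = 0.0218), and the adjusted p was 0.0659 with the replicate block. GLB1, the plastid PII protein that senses carbon and nitrogen status, had 66.4, 77.3 and 69.7 CPM in aquatic libraries, against 85.6, 130.0 and 142 CPM in terrestrial libraries. The groups did not overlap, and GLB1 fell by 0.72 (SE 0.15, adjusted p = 0.0387; 0.0945 with the replicate block). CAT2, a peroxisomal catalase and the second most abundant of the set, did not pass, with 3788, 1903 and 2261 CPM in aquatic and 3415, 1709.6 and 1463 CPM in terrestrial libraries (log2 fold change 0.31, SE 0.16, adjusted p = 0.213). AOX1A, the mitochondrial alternative oxidase, varied widely within both conditions, with 220.4, 102 and 19.7 CPM in aquatic and 97.5, 19.8 and 16.3 CPM in terrestrial libraries (adjusted p = 0.136).

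Of the ribosome and translation homologs 2 of 6 fell. PFC1, a dimethyltransferase of plastid ribosomal RNA, had 31.3, 42.9 and 48.7 CPM in aquatic libraries, against 64.8, 87.8 and 95.9 CPM in terrestrial libraries. The groups did not overlap, and PFC1 had the smallest adjusted p of the set and the only fall that passed with the replicate block. It fell by 1.02 (SE 0.10, a 2.03-fold lower level, adjusted p = 0.0115; 0.0338 with the block). AT3G09200, a homolog of acidic ribosomal protein P0, was rare, with 5.76, 1.86 and 2.40 CPM in aquatic and 9.42, 6.19 and 5.91 CPM in terrestrial libraries, and fell by 1.22 (SE 0.25, adjusted p = 0.0362; 0.0906 with the block).

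The abundant ribosomal protein homologs AT3G49910 (RPL26 type), AT2G37190 (RPL12 type) and RPL23AB had log2 fold changes of -0.27, -0.41 and -0.40 that did not pass. RPL23AB came closest, with 169, 428 and 436 CPM in aquatic and 199, 595 and 612 CPM in terrestrial libraries (SE 0.11, adjusted p = 0.0708). LOS1, the elongation factor 2 whose Arabidopsis mutant fails to induce COR genes, was close to 0 (log2 fold change -0.03, SE 0.13, adjusted p = 0.897), with 764, 1323 and 1187 CPM in aquatic and 727, 1401 and 1245 CPM in terrestrial libraries. None of the 4 RNA processing homologs passed, and their median log2 fold change was 0.05.

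TUB6, a beta tubulin, had 64.6, 312 and 244 CPM in aquatic libraries, against 269.8, 551 and 660.1 CPM in terrestrial libraries. It was lower in aquatic plants within each harvest, and the 14-day terrestrial library lay inside the aquatic range. TUB6 fell by 1.43 (SE 0.25, adjusted p = 0.0261; 0.0727 with the replicate block). The summed markers of dividing cells moved the same way within the 11-day harvest (483 and 612 CPM in aquatic, 776 and 859 CPM in terrestrial libraries), and their part in this result was not tested. In bulk tissue, fewer cells of a type and less RNA per cell cannot be told apart. PLDDELTA, a phospholipase D of the plasma membrane linked to freezing tolerance, had 28.2, 51.6 and 52.1 CPM in aquatic libraries, against 52.4, 68.9 and 87.0 CPM in terrestrial libraries. The groups were adjacent but did not overlap, and PLDDELTA fell by 0.69 (SE 0.14, adjusted p = 0.0351; 0.0762 with the replicate block and 0.0598 within the 11-day libraries).

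Across the 38 tested homologs that did not pass, log2 fold changes lay between -2.65 (KCS3) and 1.55 (AOX1A), and 30 of the 38 were within 0.5 of 0. The standard errors of these 30 ran from 0.10 to 0.96, so that larger changes are compatible with some of them. The 6 homologs that could not be tested (CBF2, RTV1, SERAT2;1, SYP112, AT2G27710 and AT3G59710) had 31 counts or fewer in all libraries together.

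Sums over a homolog hid different transcripts in some cases. At the level of transcripts, 111 of the 126 were tested, 13 rose and 14 fell, beside 6.42% higher and 4.04% lower among all 58039 transcripts tested. With the replicate block 6 rose and 5 fell. CHY1 had 4 transcripts, and the one that fell by 1.82 (SE 0.34, adjusted p = 0.0261) held 91.6% of its counts and matched the Arabidopsis protein at 55%. The transcript with the closest match, at 67%, held 6.15% of the counts and had a log2 fold change of 0.08 (SE 0.14, adjusted p = 0.763). The other 2 transcripts, both at 53% identity, had log2 fold changes of -2.21 and -3.1, and both passed.

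Of the 3 transcripts of VEL1, the one that held 69.4% of the counts rose by 1.16 (SE 0.15, adjusted p = 0.00948). The next, with 21.8%, had a log2 fold change of 0.42 (SE 0.19, adjusted p = 0.224), and the least abundant had a log2 fold change of -0.99 (SE 0.32, adjusted p = 0.115). TIL, the temperature-induced lipocalin of membranes, had a summed log2 fold change of 0.03 (SE 0.15, adjusted p = 0.899) from transcripts of opposite sign. Its closest transcript (74% identity) had a log2 fold change of 0.38 (SE 0.15, adjusted p = 0.174), and the other (68%) fell by 0.84 (SE 0.19, adjusted p = 0.0450). BT3 rose in 2 of its 3 transcripts, by 3.46 and 3.37, and the last had a log2 fold change of 0.59 (SE 0.24, adjusted p = 0.182).

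**Figure D3:**
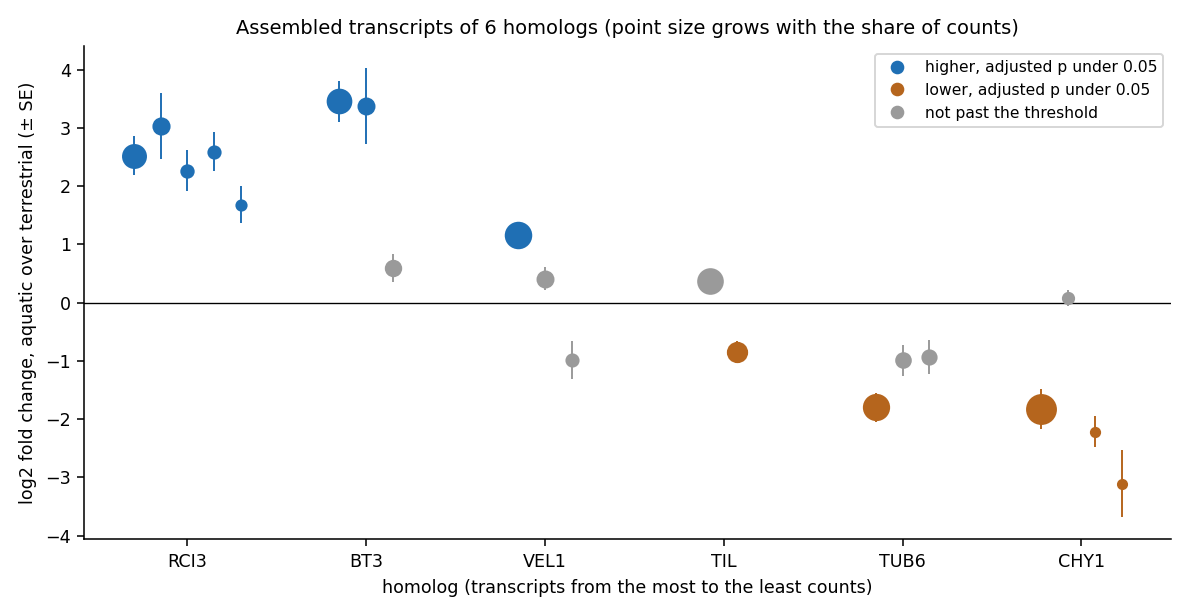
Log2 fold change of aquatic over terrestrial with standard errors (y axis) for each tested transcript of 6 homologs (x axis), from the most to the least abundant; larger points hold more of the homolog's counts. The RCI3 transcripts all lie between 1.68 and 3.03, while TIL and VEL1 have transcripts on both sides of 0 and a CHY1 transcript lies at 0.08.

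Harvest moved more of these homologs than submergence did in the same fit, and the same held among all homologs. Between 14-day leaf and 11-day leaf with apex, 12 of the 52 rose and 12 fell (23.1% each), beside 15.4% higher and 18.4% lower among all homologs. The counts fell to 4 higher and 7 lower without aquatic library 2, 7 and 7 without aquatic library 3, 5 and 5 without terrestrial library 2, and 5 and 3 without terrestrial library 3. The 5 homologs with the smallest adjusted p among those higher at 14 days were CAMTA2 (log2 fold change 1.20, SE 0.10, adjusted p = 0.00359), VEL1 (0.84, SE 0.10, adjusted p = 0.00667), BAG6 (2.93, SE 0.38, adjusted p = 0.00783), CAT2 (0.99, SE 0.16, adjusted p = 0.0132) and SR1 (0.56, SE 0.11, adjusted p = 0.0193). CAT2 did not pass without aquatic library 2 or terrestrial library 2 (adjusted p = 0.0504 and 0.0542), and SR1 passed only when all 4 of the 11-day libraries were kept (0.0505 to 0.0602 without one of them).

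Translation homologs led the other direction, and 5 of the 6 tested were lower at 14 days, while AT3G09200 was higher (log2 fold change 1.03, SE 0.26, adjusted p = 0.0350). RPL23AB fell by 1.48 (SE 0.13, adjusted p = 0.00441), AT3G49910 by 1.5 (SE 0.15, adjusted p = 0.00527), AT2G37190 by 1.46 (SE 0.16, adjusted p = 0.00597) and LOS1 by 0.79 (SE 0.14, adjusted p = 0.0163). TUB6 fell by 1.61 (SE 0.29, adjusted p = 0.0157). Without terrestrial library 3 the adjusted p was 0.0592 for TUB6 and 0.0539 for LOS1, and LOS1 also missed the threshold without aquatic library 2 (0.0561) or terrestrial library 2 (0.0629). Of the 15 apex and dividing cell markers 13 fell and none rose in the same comparison, and their part in these falls was not tested. ICE1 (-1.71, adjusted p = 0.0353) and COR27 (-2.0, adjusted p = 0.0167) were lower at 14 days too.

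The KCS homologs showed a different pattern. KCS enzymes are the 3-ketoacyl-CoA synthases that lengthen fatty acids for cuticular wax and other very-long-chain lipids, and 6 of them are among the 58 homologs. None passed for the aquatic effect over all libraries, with log2 fold changes of -2.65 to 0.13 and standard errors of up to 1.31. The test of whether the aquatic effect differed between harvests found 4 of the 52 homologs lower at 14 days, all of them KCS, and 0 higher, beside 3.95% lower and 0.662% higher among all homologs. At an unadjusted p under 0.05 there were 12 lower and 4 higher, and DESeq2 called 10 lower and 1 higher. Without aquatic library 2 edgeR called 9 lower and 1 higher, and without terrestrial library 3 it called 3 lower. As each condition has only 1 library at 14 days, the spread in this test comes from the 11-day libraries alone and the 14-day libraries are assumed to vary like them.

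KCS10, known as FIDDLEHEAD, had 31.6 CPM in aquatic and 677 CPM in terrestrial leaf at 14 days. At 11 days it had 583 and 656 CPM in aquatic libraries, against 456 and 504 CPM in terrestrial libraries. The aquatic level was thus far below the terrestrial level in 1 harvest and slightly above it in the other. The 14-day pair differed by 21.4-fold (95% counting interval 19.3 to 23.9, which covers counting error only), and the difference between harvests was -4.79 on the log2 scale (SE 0.26, adjusted p = 0.00902).

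KCS6, the wax enzyme CER6, had 9.18 CPM in aquatic and 325 CPM in terrestrial leaf at 14 days. At 11 days it had 109 and 70.4 CPM in aquatic libraries, against 73.0 and 66.0 CPM in terrestrial libraries, so that the groups overlapped there. The 14-day pair differed by 35.4-fold (counting interval 29.1 to 43.5), and the difference between harvests was -5.51 (SE 0.46, adjusted p = 0.0120, and 0.0505 without terrestrial library 3).

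KCS20 had 1.89 CPM in aquatic and 15.9 CPM in terrestrial leaf at 14 days, against 57.1 and 66.3 CPM in aquatic and 24.2 and 27.9 CPM in terrestrial libraries at 11 days. It was lower in aquatic leaf at 14 days and rose in the 11-day libraries alone (log2 fold change 1.25, adjusted p = 0.0140), and the difference between harvests was -4.31 (SE 0.31, adjusted p = 0.00966). KCS3 had 0 counts in aquatic and 346 counts (21.4 CPM) in terrestrial leaf at 14 days, an at least 79.4-fold lower level when 3 counts are taken as the floor of that library. At 11 days it had 20.6 and 21.4 CPM in aquatic libraries, against 56.7 and 78.3 CPM in terrestrial libraries, and fell in these alone by 1.68 (adjusted p = 0.0131). The test between harvests passed (adjusted p = 0.0139), while its fitted size depends on the treatment of the 0.

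KCS4 and KCS11 pointed the same way without passing. KCS4 had 191 CPM in aquatic and 1054 CPM in terrestrial leaf at 14 days, and 313 and 433 CPM in aquatic against 665 and 571 CPM in terrestrial libraries at 11 days (difference between harvests -1.73, SE 0.36, adjusted p = 0.0789). KCS11 had 225 CPM in aquatic and 877 CPM in terrestrial leaf at 14 days, and 519 and 317 CPM in aquatic against 304 and 347 CPM in terrestrial libraries at 11 days (-2.32, SE 0.47, adjusted p = 0.0750). Over the 6 KCS homologs the summed level was 459 CPM in aquatic and 2970.4 CPM in terrestrial leaf at 14 days. At 11 days it was 1601 and 1564 CPM in aquatic and 1578 and 1593 CPM in terrestrial libraries. The sum was thus lowest in library 1 among aquatic libraries and highest in library 1 among terrestrial libraries, and both enter the difference between harvests. Terrestrial library 1 was the highest of its group for KCS4, KCS6, KCS10 and KCS11, and the lowest for KCS3 and KCS20. Aquatic library 1, which holds the low aquatic values, is also the library with 36.2% of its counts on 3 transcripts. The part of that in this result was not tested.

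**Figure D4:**
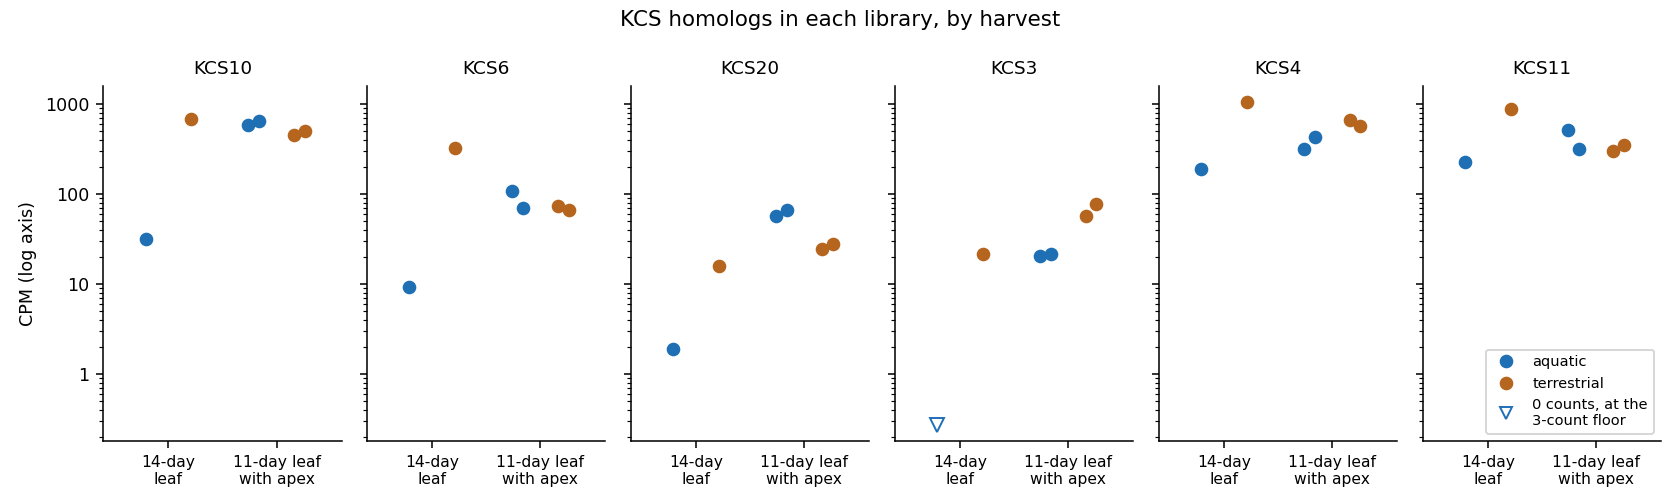
CPM (log axis) of the 6 KCS homologs in each library, 14-day leaf left and 11-day leaf with apex right, aquatic left of terrestrial; the open triangle marks 0 counts, drawn at 3 counts. At 14 days every aquatic point is below its terrestrial point, while at 11 days the conditions lie close together, apart from KCS20, KCS3 and KCS4.

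SAUR14, an auxin-induced small protein, had a similar shape with 1 count (0.0900 CPM) in aquatic and 59.5 CPM in terrestrial leaf at 14 days. At 11 days it had 6.81 and 12.5 CPM in aquatic and 19.1 and 7.07 CPM in terrestrial libraries, and the difference between harvests missed the threshold (adjusted p = 0.0510).

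The 5 lists of known cold pathway genes, matched by symbol, place these homologs in the wider pathway. Of 57 matched genes 51 were tested, and 6 of them were higher and 7 lower in aquatic plants, beside 9.60% higher and 6.78% lower among all homologs. Their log2 fold changes had a median of -0.03, against -0.02 over all homologs. Of these 51, 40 lie outside the 58 homologs, and 4 of them rose and 5 fell. Of 6 cold signalling genes 1 fell, and 4 of 17 regulators of CBF rose and 2 fell. Among cold-regulated targets 2 of 7 rose, none of 8 cold RNA-binding proteins passed, and 4 of 13 membrane and lipid genes fell.

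CIPK3, a protein kinase of calcium signalling in cold, had 15.7, 43.4 and 45.7 CPM in aquatic libraries, against 99.7, 123 and 174 CPM in terrestrial libraries. The groups were apart, and CIPK3 fell by 2.04 (SE 0.26, adjusted p = 0.0155; 0.0446 with the replicate block). STZ, a zinc finger repressor also called ZAT10, had 325, 236 and 57.3 CPM in aquatic libraries, against 38.2, 10.1 and 8.68 CPM in terrestrial libraries. It rose by 3.67 (SE 0.61, adjusted p = 0.0226), with much spread among the aquatic libraries. The nearest matches to the morning clock factors LHY (1.08, SE 0.16, adjusted p = 0.0194) and CCA1 (0.97, SE 0.15, adjusted p = 0.0205; 0.0566 with the block), which act on CBF genes in Arabidopsis, also rose. Identity of the best match was only 38% for LHY, 35% for CCA1 and 45% for STZ. FVE, a histone-binding protein, fell by 0.62 (SE 0.12, adjusted p = 0.0295; 0.0641 with the block).

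The COR and CBF genes outside the 58 were few. CBF1 had 1.71, 12.1 and 0.246 CPM in aquatic and 0.310, 1.56 and 1.03 CPM in terrestrial libraries, a spread that left its log2 fold change of 2.29 (SE 1.26) below the threshold (adjusted p = 0.247). COR47 (37% identity) had no count in the aquatic libraries and at most 0.340 CPM in a terrestrial library. The best match of COR413-PM1 had 33% identity. COR413-PM1, a cold-regulated membrane protein, had 4.32, 2.75 and 2.77 CPM in aquatic and 1.61, 1.84 and 1.29 CPM in terrestrial libraries, above in all, and did not pass (log2 fold change 1.02, SE 0.27, adjusted p = 0.0593). LTI65, also a cold-regulated target (26% identity), was below in all, with 0, 0.413 and 0.924 CPM in aquatic and 4.03, 1.70 and 1.67 CPM in terrestrial libraries. LTI65 did not pass either (log2 fold change -2.28, SE 0.94, adjusted p = 0.149). LEA14, a late embryogenesis abundant protein, rose by 2.45 (SE 0.52, adjusted p = 0.0393; 0.0950 with the block), with 119, 73.4 and 49.7 CPM in aquatic and 7.74, 18.6 and 17.7 CPM in terrestrial libraries.

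In lipid metabolism ACX4, an acyl-CoA oxidase, fell by 0.99 (SE 0.19, adjusted p = 0.0294; 0.0699 with the block), FAB1, a plastid fatty acid elongation enzyme, by 0.62 (SE 0.12, adjusted p = 0.0304; 0.0788 with the block), and DGK2, a diacylglycerol kinase, by 2.12 (SE 0.48, adjusted p = 0.0436; 0.104 with the block). Of the 9 genes outside the 58 named as called here and above, 0 passed without aquatic library 2 and 0 without terrestrial library 3, CIPK3 alone passed without terrestrial library 2, and CIPK3 and STZ passed without aquatic library 3. All 9 had an unadjusted p under 0.05 in each of these 4 fits.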

How the data were processed

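The authors assembled paired-end reads de novo (Trinity), named TopHat and Cufflinks for mapping and FPKM (versions not stated), and deposited 1 table per library with expected counts (estimated counts per transcript), TPM and FPKM, and 1 annotation table with the percent identity and bit score of the best protein match of each transcript, both deposited by the authors; the counting tool and the search tool were not stated either. The bit score was not used further, 6 per-library columns of the annotation table were not used, and 6 tables holding the authors' pooled FPKM and ratios for other gene groups were not analysed here. No sequence was at hand, so none is shown.

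Estimated counts were rounded and summed per Arabidopsis homolog. edgeR 4.0.16 (R 4.3.3; TMM scaling, filterByExpr with a minimum count of 10, glmQLFTest) was fitted to all 6 libraries with condition and harvest as terms. The interaction was a separate fit. Standard errors (SE) were not estimated directly. They were taken as the absolute log2 fold change divided by the square root of edgeR's F statistic, and are thus approximate. CPM values use the homolog totals (11355577 to 16953062 counts before scaling), scaled by TMM. DESeq2 1.42.0 and limma 3.58.1 on log2(FPKM + 1) or log2(FPKM + 0.1) were alternatives, as were RLE factors, scaling from all transcripts, other filters, a minimum identity of 50%, the most abundant transcript, a replicate block and leaving out libraries. The tests of the aquatic effect were also run on simulated data that followed the assumed models. That run does not bear on the interaction or on the state of aquatic library 1. Levels are given per length only as TPM. Same-numbered libraries deviated together (correlations 0.662, 0.543 and 0.465), number 1 being the 14-day harvest, but within the 11-day harvest differently numbered libraries did so as much (0.593 for aquatic 2 with terrestrial 3, 0.477 for aquatic 3 with terrestrial 2), so the numbers show a shared harvest and do not show pairing within it. Blocked values are printed where they change a call. Symbols that clash with another gene (4) were removed from the lists by locus. The homologs and lists were chosen with earlier results of these data known. Named were all homologs past the threshold, the 6 most abundant and the 3 of smallest unadjusted p that did not pass, the 5 of smallest adjusted p per direction for harvest, all with an interaction, and up to 4 called genes per list with ICE1, CBF and COR genes. Others (GI, PHYB, VRN5, FIE, HOS15, TIL, AOX1A, SAUR14, KCS4, KCS11 and LTI65) were named after their values were seen.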

Additional observations from a re-analysis of the deposited data

Results flagged for a closer look

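The aquatic effect differed between harvests, by the test of condition and harvest together in edgeR, for 4 of the homologs and for 4 genes of the cold pathway lists, and each had a lower ratio of aquatic to terrestrial level at 14 days than at 11 days. The homologs were KCS10 (-4.79 on the log2 scale), KCS20 (-4.31), KCS6 (-5.51) and KCS3 (-9.62, fitted against a library with 0 counts and so no measure of size). KCS1, another elongation enzyme, differed by -4.71 (adjusted p = 0.00902), with 9.63 CPM in aquatic and 604 CPM in terrestrial leaf at 14 days. At 11 days KCS1 had 61.0 and 47.2 CPM in aquatic and 127 and 131 CPM in terrestrial libraries. MYB96, a factor that activates wax genes in Arabidopsis, differed by -3.07 (adjusted p = 0.00902), with 21.5 CPM in aquatic and 193 CPM in terrestrial leaf at 14 days and 68.8 to 69.1 CPM in aquatic against 73.0 to 74.4 CPM in terrestrial libraries at 11 days. FAD5, a plastid desaturase, differed by -7.71 (adjusted p = 0.0176, and 0.0544 without terrestrial library 3), and SLD2, a sphingolipid desaturase, by -2.80 (adjusted p = 0.0128). All of these values rest on 1 library per condition at 14 days.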

How the results depend on the processing

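Across 21 alternatives for the aquatic effect, none turned the direction of any of the 14 homologs past the threshold that it could give a value for. With a minimum identity of 50%, 3 of the 14 (VEL1, CAMTA2 and BAG6) were not in the table, and neither were LHY, CCA1 and STZ of the cold pathway lists. Without the harvest term 0 were higher and 0 lower (4 and 4 at an unadjusted p under 0.05 in edgeR, the only tool run without that term). With the replicate block 4 were higher and 1 lower, and among transcripts 6 and 5. Leaving out 1 library, or the same-numbered pair, gave 0 to 6 higher and 0 to 9 lower for the aquatic effect. It gave 4 to 13 higher and 3 to 15 lower for harvest, and 0 to 1 higher and 3 to 9 lower for the difference between harvests. DESeq2 gave 1 higher and 10 lower for that difference.

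Signs turned only in homologs that had not passed. Among those named by rule these were HSC70-1 (-0.46 to 0.023), KCS10 (-2.05 to 0.37), KCS20 (-0.81 to 1.25), KCS6 (-2.49 to 0.37) and LOS1 (-0.087 to 0.034) over the fits with libraries left out. Signs of others turned too, such as KCS11 (-0.38 over all libraries, 0.36 in the 11-day libraries alone) and TIL (0.03 and -0.08). Scaling from all transcripts moved the median log2 fold change of all homologs to -0.10, against -0.02, and the share of calls that were higher to 48.6%, against 58.6%. CAMTA2 did not pass under that scaling or with limma at either pseudocount, BAG6 with limma at a pseudocount of 1 or with the most abundant transcript only, and AT3G09200 with limma at 0.1. With 1 library per condition at 14 days and low counts in CBF2, COR27 and COR47, small differences in these were not detectable at this depth. The causes of these changes were not tested.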

Other observations

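Outside the 58 homologs, 15 tested homologs share the terms cuticle development or very long-chain fatty acid metabolism with the KCS homologs, terms picked after the KCS values were seen. Of these, 3 (KCS1, KAS and FAB1) are annotated to response to cold and were left out of the 58 for an excluded term. Of the 15, 9 had a lower aquatic effect at 14 days than at 11 days by the interaction test and 0 a higher one, beside 3.95% and 0.662% of all homologs, and 14 of the 15 had a negative difference. CER3, a wax synthesis protein, had 5.94 CPM in aquatic and 629 CPM in terrestrial leaf at 14 days, and at 11 days 114 and 105 CPM in aquatic against 140.4 and 150.3 CPM in terrestrial libraries. ABCG32, a cuticle transporter, had 15.8 CPM in aquatic and 133 CPM in terrestrial leaf at 14 days, and at 11 days 109 and 112 CPM in aquatic against 119 and 97.7 CPM in terrestrial libraries. For the condition effect over both harvests 1 of the 15 rose and 1 fell.

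Of the 100 homologs under response to cold that carry one of the excluded terms, 90 were tested, 14 rose and 8 fell in aquatic plants, beside 9.60% higher and 6.78% lower among all homologs.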
